A study of Mus musculus and Bos taurus with 26 samples.

Results

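Late 2-cell mouse embryos that had received mRNA for wild-type (WT) Hdac1 as zygotes were compared with late 2-cell embryos that had received water at the same stage. Both groups were taken 36 h after fertilization, and each holds 2 of the 26 libraries of the study, which profiled polyadenylated RNA of whole mouse and bovine embryos. The labels give neither the amount of mRNA injected, nor the mouse strain, nor the number of embryos in a library. They also do not say that the 2 libraries of a group came from separate collections. Unless stated otherwise, a p-value rests on a replicate spread per gene that is pooled over all 11 mouse groups. Differences between separate collections of embryos may therefore not be covered by the p-values. Other mouse groups of 2 libraries serve as further comparisons: zygotes injected with mRNA for Hdac2 WT, Hdac2 mutant or Hdac1 mutant, embryos exposed to 50 nM FK228 from the zygote stage, embryos kept in KSOM medium with DMSO, all at 36 h, and Hdac1 WT embryos at 24 h. Values are FPKM, fragments per kilobase of transcript, scaled to the mapped fragments of the library, as the authors deposited them. A gene was kept where it had at least 1 FPKM in 2 or more of the 4 libraries, which left 11903 of the 27988 genes of the mouse table. Just inside that limit was Zswim6, at 0.491 and 0.779 FPKM in Hdac1 WT libraries and 1.001 and 1.46 in H2O libraries. Just outside was Usp51, at 0.568 and 1.35 FPKM in Hdac1 WT libraries and 0.619 and 1 in H2O libraries.

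Hdac1 is a class I histone deacetylase, an enzyme that removes acetyl groups from lysines of histone tails. It works with its close relative Hdac2 inside corepressor complexes such as SIN3, NuRD and CoREST, which are recruited to chromatin by other factors. In the mouse, the embryo's own genome is switched on mainly at the 2-cell stage, while RNA stored in the oocyte is being cleared. An injected mRNA for the active enzyme therefore asks what an excess of deacetylase does to both processes. Water injection is the control for the injection itself but carries no mRNA. An effect of the enzyme and an effect of injected mRNA as such therefore cannot be told apart in this comparison. FPKM are relative to each library's total, so less RNA of every gene per embryo would not be seen, and in whole embryos fewer cells and less RNA per cell cannot be told apart.

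The injected transcript was found in the libraries labelled with it. Hdac1 (chromosome 4, 129516104 to 129542713 on GRCm38, minus strand, protein coding) was at 2707 and 2960 FPKM in Hdac1 WT embryos, against 92.2 and 89.3 in H2O embryos. It made up 0.816% and 0.947% of the summed FPKM in the Hdac1 WT libraries, against 0.0267% and 0.0266% in the H2O libraries. Its log2 fold change was 4.95 ± 0.18 (SE), with an adjusted p of 1.59e-10 in limma. Deposited FPKM do not tell the injected mRNA from the embryo's own transcript. Hdac1-ps, annotated by RefSeq as a pseudogene of Hdac1 on chromosome 17 (78491565 to 78493541), followed it at 442 and 581 FPKM in Hdac1 WT embryos, against 22.2 and 26.6 in H2O embryos. Of the 50-base words in the annotated transcript of this pseudogene, 80.4% also occur in Hdac1 transcripts, so its value is uncertain.

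The other deacetylases did not pass the test. Hdac2 was at 19.3 and 16.3 FPKM in Hdac1 WT embryos and 26.4 and 19.2 in H2O embryos (log2 fold change -0.33 ± 0.14, adjusted p = 0.206 in limma). Kdm5b, a demethylase of histone H3 lysine 4 that the study injected in another group, was at 116 and 126 FPKM in Hdac1 WT embryos and 143 and 124 in H2O embryos (log2 fold change -0.14 ± 0.25, adjusted p = 0.812 in limma). Of 14 histone deacetylase genes tested, 1 was called higher, Hdac1 itself, and 0 were called lower, where 0.765% of all genes tested were called higher and 3.59% lower. At an unadjusted p under 0.05, 2 of the 14 were higher, Hdac1 included, and 2 lower, where 5.43% of all genes were higher and 14.5% lower at that p. The same was so for the partners of the enzyme. Of 48 subunits of HDAC1/2 corepressor complexes, 0 were called in limma, with log2 fold changes between -0.872 and 0.532. Nearest to the threshold was Rbbp7, at 94.1 and 103 FPKM in Hdac1 WT embryos and 133 and 137 in H2O embryos. Its log2 fold change was -0.45 ± 0.12 (adjusted p = 0.0503 in limma). At an unadjusted p under 0.05, 2 of the 48 were higher and 9 lower. Beyond the calls, 14 lay lower in both Hdac1 WT libraries than in either H2O library and 5 lay higher, where 27.6% of all genes lay lower and 13.3% higher in that way, so these counts are near the background. Chd4, the remodelling ATPase of NuRD, was at 17.9 and 25.5 FPKM in Hdac1 WT embryos and 29.5 and 32.0 in H2O embryos, and Sin3a, the scaffold of the SIN3 complex, was at 89.1 and 75.9 FPKM in Hdac1 WT embryos and 88.9 and 91.2 in H2O embryos (both chosen after their values were seen).

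Across all genes, 91 were called higher in Hdac1 WT embryos (0.765% of those tested) and 427 lower (3.59%), at an adjusted p under 0.05 in limma. The changes were mostly moderate. The median size was 1.13 on the log2 scale among higher and 1 among lower calls, and 56 of the higher and 213 of the lower calls reached a 2-fold change. In 17 of the higher calls and 49 of the lower ones, a library of the lower group was listed at 0, and a 0 in such tables can be a failed estimate. Whether called or not, both Hdac1 WT libraries lay above both H2O libraries in 1581 genes (13.3%) and below both in 3287 (27.6%). All 91 higher and all 427 lower calls were among these genes. The median of all genes was -0.0975, and scalings that bring this median near 0 changed the balance of the calls. Higher calls made up 17.6% of all calls in the values as deposited, 31% after median-ratio scaling (116 higher and 258 lower), and 32.9% after quantile normalization (73 higher and 149 lower).

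How firmly these calls stand depends on the replicates. The 2 groups compared had the widest replicate spread of the mouse groups together with Hdac1 mutant embryos. The root mean square SD of log2 values was 0.47 in Hdac1 WT and 0.434 in H2O embryos, against 0.234 to 0.31 in the 8 other mouse groups outside the Hdac1 mutant late group, which was at 0.434. The limma fit gives all 11 mouse groups a common spread per gene. With groups weighted by their own replicate spread, an alternative added after the data were seen, 8 genes were called higher and 12 lower, and with only the 4 libraries in the fit the calls were Hdac1 and Hdac1-ps, with 0 genes lower and 1041 genes at an unadjusted p under 0.05. Leaving out 1 library at a time gave 25 to 215 higher and 200 to 557 lower calls, and 17 higher and 65 lower genes passed with each of the 4 libraries left out. A relative depth estimated from low values put Hdac1 WT replicate 1 at 0.78 of the median of the 4 libraries and the others at 0.992 to 1.05, though only 3.08% to 8.17% of low genes lay at the ratio it rests on.

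**Figure D1:**
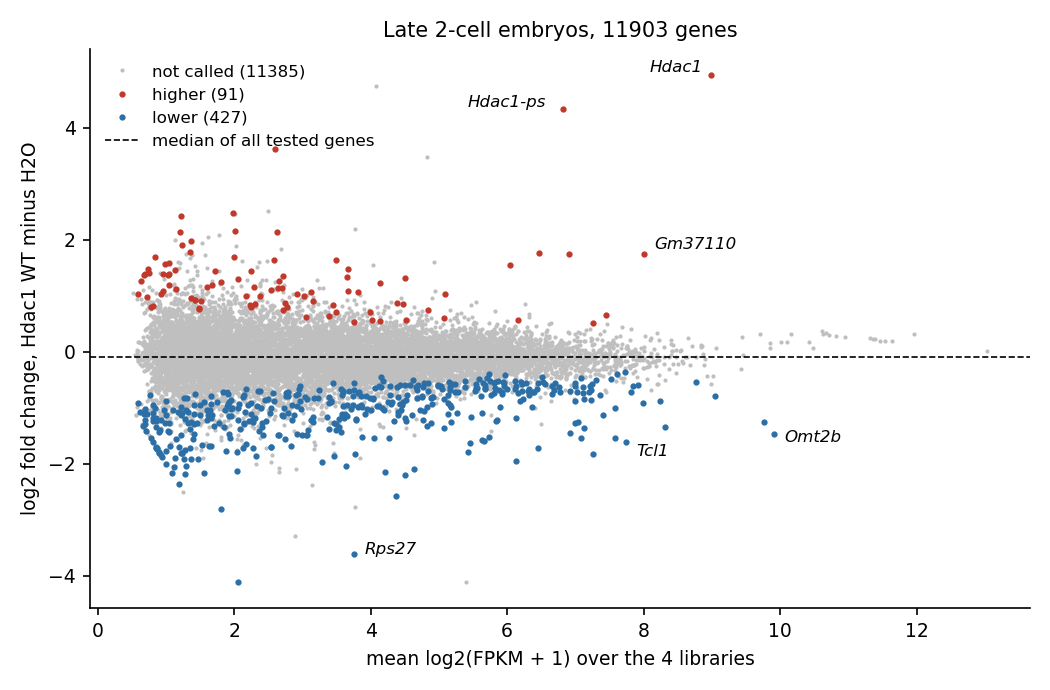
Log2 fold change of Hdac1 WT minus H2O against the mean log2(FPKM + 1) of the 4 libraries for 11903 genes, each point a gene, with calls at an adjusted p under 0.05 in colour and the median of all genes dashed. Hdac1 and Hdac1-ps are called at 4.95 and 4.33, the 427 lower calls outnumber the 91 higher ones, and Omt2b is the most abundant of the lower calls.

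The lower calls include a group of transcripts that the oocyte stores in large amounts. The Tcl1 cluster on chromosome 12 is described first, because 5 of its 6 neighbouring genes were called lower. Tcl1 encodes a small protein that binds and activates the kinase Akt, and Tcl1b1 to Tcl1b5 are mouse copies of a related gene. Loss of Tcl1 in mice is known to slow the first cleavages. Tcl1b3 and Tcl1b4 are named by the rule for the largest falls, and the other members of the cluster were chosen after their values were seen. The starts of the 6 genes in RefSeq (GRCm38.p6) are shown because 5 of these neighbouring genes were called lower together, while Tcl1b5 did not pass the test. Each line gives 250 bases before to 50 bases after the start, 5′ to 3′, with each CACCTG on either strand (an E-box, read as CACCTG or CAGGTG) in capitals.

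Tcl1: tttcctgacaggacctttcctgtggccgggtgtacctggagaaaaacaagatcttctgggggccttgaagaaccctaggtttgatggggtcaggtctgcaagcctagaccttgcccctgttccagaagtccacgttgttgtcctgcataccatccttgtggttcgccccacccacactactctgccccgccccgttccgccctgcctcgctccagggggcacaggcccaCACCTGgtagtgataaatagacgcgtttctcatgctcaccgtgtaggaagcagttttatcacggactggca
Tcl1b1: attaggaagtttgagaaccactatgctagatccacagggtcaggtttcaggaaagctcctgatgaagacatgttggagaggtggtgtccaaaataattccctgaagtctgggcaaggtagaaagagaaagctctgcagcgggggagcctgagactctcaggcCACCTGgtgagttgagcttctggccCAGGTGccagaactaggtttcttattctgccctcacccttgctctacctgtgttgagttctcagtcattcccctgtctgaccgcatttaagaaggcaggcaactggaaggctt
Tcl1b2: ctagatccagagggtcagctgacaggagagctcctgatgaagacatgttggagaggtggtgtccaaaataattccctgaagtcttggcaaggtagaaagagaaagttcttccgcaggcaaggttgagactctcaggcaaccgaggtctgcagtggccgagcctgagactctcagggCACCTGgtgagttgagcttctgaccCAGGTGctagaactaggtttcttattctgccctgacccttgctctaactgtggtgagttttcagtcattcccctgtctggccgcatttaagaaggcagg
Tcl1b3: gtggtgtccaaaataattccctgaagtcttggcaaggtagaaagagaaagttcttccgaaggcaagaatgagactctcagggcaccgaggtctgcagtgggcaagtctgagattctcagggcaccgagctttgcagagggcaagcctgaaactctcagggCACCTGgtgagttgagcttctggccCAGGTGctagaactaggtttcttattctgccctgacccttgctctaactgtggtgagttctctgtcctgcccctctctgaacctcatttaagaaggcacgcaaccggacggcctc
Tcl1b4: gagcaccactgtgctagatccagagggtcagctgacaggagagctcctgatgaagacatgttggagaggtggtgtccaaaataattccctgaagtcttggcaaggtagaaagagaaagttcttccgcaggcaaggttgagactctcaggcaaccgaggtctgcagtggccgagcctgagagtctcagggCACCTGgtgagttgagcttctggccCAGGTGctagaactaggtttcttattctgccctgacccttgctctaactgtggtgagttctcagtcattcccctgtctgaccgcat
Tcl1b5: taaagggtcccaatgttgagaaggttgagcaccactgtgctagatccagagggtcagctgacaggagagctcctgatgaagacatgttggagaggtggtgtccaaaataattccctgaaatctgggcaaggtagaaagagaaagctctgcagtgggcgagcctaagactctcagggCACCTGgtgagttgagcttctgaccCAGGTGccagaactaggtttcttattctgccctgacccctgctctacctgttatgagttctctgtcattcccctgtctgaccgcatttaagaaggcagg

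The Tcl1 window lies at chr12:105222688-105222987 on the minus strand. The Tcl1b1 window lies at chr12:105159454-105159753 on the plus strand. The Tcl1b2 window lies at chr12:105146769-105147068 on the plus strand. The Tcl1b3 window lies at chr12:105190795-105191094 on the plus strand. The Tcl1b4 window lies at chr12:105202145-105202444 on the plus strand. The Tcl1b5 window lies at chr12:105176094-105176393 on the plus strand. The 5 Tcl1b windows hold 2 copies of the motif each, and that of Tcl1 holds 1, so the motif is found in 6 of 6 windows. Over all promoter windows of the same length in RefSeq, 20.2% of 32851 hold it on either strand. The Tcl1b windows share long stretches and therefore do not count as separate observations. The motif was picked after the windows had been read, and a match describes letters only.

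Tcl1 itself was at 127 and 118 FPKM in Hdac1 WT embryos, against 267 and 524 in H2O embryos. Tcl1b1 was at 104 and 120 FPKM in Hdac1 WT embryos, against 227 and 467 in H2O embryos, and Tcl1b2 at 50.2 and 44.4 FPKM in Hdac1 WT embryos, against 115 and 217 in H2O embryos. In all 3 genes the Hdac1 WT libraries lay close together and, as in all 427 lower calls, below both H2O libraries. H2O replicate 2 was about 2 times as high as H2O replicate 1. Tcl1b3 was at 33.7 and 35.3 FPKM in Hdac1 WT embryos, against 106 and 175 in H2O embryos, and Tcl1b4 at 9.77 and 12.3 FPKM in Hdac1 WT embryos, against 29.7 and 85.3 in H2O embryos. Tcl1b5 was at 12.4 and 14.7 FPKM in Hdac1 WT embryos and 16.1 and 49.8 in H2O embryos, which did not pass the test (adjusted p = 0.211 in limma). The log2 fold changes of the 5 called genes ran from -1.54 ± 0.36 (Tcl1b1, adjusted p = 0.0271) to -2.10 ± 0.56 (Tcl1b4, adjusted p = 0.0466), and among these 5 genes only Tcl1b2 (-1.72 ± 0.27, adjusted p = 0.00416) passed with each library left out in turn. Under groups weighted by their spread, none of the 5 passed, the nearest being Tcl1b2 with an adjusted p of 0.052 in limma. Up to 22.2% of the 50-base words of a Tcl1b transcript are shared with another copy and 0% of those of Tcl1, so the split among the copies is uncertain.

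Other stored transcripts stood in the same order. Omt2b, an oocyte maturation transcript and among the most abundant of the lower calls, was at 590 and 563 FPKM in Hdac1 WT embryos, against 1494 and 1704 in H2O embryos (log2 fold change -1.47 ± 0.23, adjusted p = 0.00371 in limma). Its near copy Omt2a was at 620 and 507 FPKM in Hdac1 WT embryos, against 1304 and 1376 in H2O embryos; the copies share 37% of the 50-base words of Omt2a. Bcl2l10, an oocyte member of the Bcl2 family of cell death regulators, was at 72.2 and 71.7 FPKM in Hdac1 WT embryos, against 156 and 252 in H2O embryos. All 3 transcripts passed with each library left out. Obox5, an oocyte homeobox gene, was at 28.3 and 32.5 FPKM in Hdac1 WT embryos, against 73.8 and 108 in H2O embryos (log2 fold change -1.53 ± 0.20, adjusted p = 0.00141 in limma), and it also passed with groups weighted by their spread (adjusted p = 0.0223). Btg4, an adaptor that brings the CCR4-NOT deadenylase to maternal mRNAs, was at 226 and 219 FPKM in Hdac1 WT embryos, against 372 and 450 in H2O embryos. Rfpl4, an oocyte RING finger gene, was at 44.4 and 38.8 FPKM in Hdac1 WT embryos, against 71.9 and 96.5 in H2O embryos, at the edge of the threshold (adjusted p = 0.0499 in limma). Btg4 and Omt2a were chosen after their values were seen.

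Most other stored transcripts did not pass the test. Of 49 maternal oocyte factors tested, 4 were called lower, a larger share than the 3.59% of all genes, and 0 higher (0.765% of all genes). At an unadjusted p under 0.05, 10 of the 49 were lower and 3 higher, where 14.5% of all genes were lower and 5.43% higher. The median log2 fold change of the 49 was nevertheless -0.05, above the -0.0975 of all genes. Zp3, a coat protein of the egg, was at 22.9 and 21.1 FPKM in Hdac1 WT embryos and 22.5 and 26.1 in H2O embryos. Gdf9, a growth factor secreted by the oocyte, was at 49.4 and 58.6 FPKM in Hdac1 WT embryos and 38.4 and 61.9 in H2O embryos, and Dppa3, which protects the maternal genome from demethylation, was at 723 and 647 FPKM in Hdac1 WT embryos and 773 and 666 in H2O embryos. These 3 genes, chosen after their values were seen, overlapped between the groups. The 24 h libraries, which received the same Hdac1 WT mRNA, give the earlier levels. Tcl1 stood at 1770 and 1720 FPKM there and Bcl2l10 at 3710 and 3510, far above the levels of either injected group at 36 h. No water-injected libraries at 24 h were analysed here, and so the levels of the same transcripts at 24 h after water are not known.

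**Figure D2:**
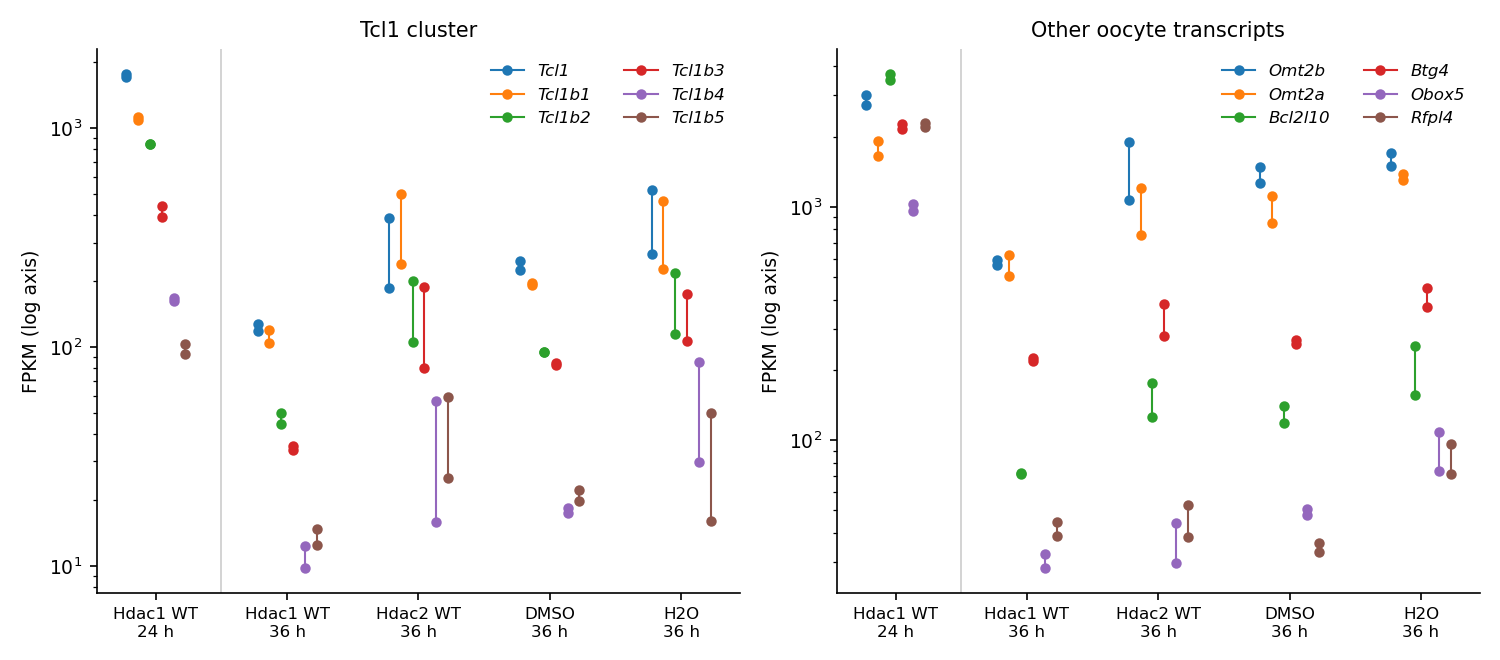
FPKM on a log axis of the Tcl1 cluster and of other oocyte transcripts in Hdac1 WT embryos at 24 h and in Hdac1 WT, Hdac2 WT, DMSO and H2O embryos at 36 h, each point 1 library and the 2 of a group joined. At 36 h the Hdac1 WT libraries are the lowest of the 4 groups for each of the 6 genes of the Tcl1 cluster, with Tcl1 at 127 and 118, and the Hdac2 WT and H2O pairs are wide. Hdac1 mutant embryos, which are not drawn, were about as low, with Tcl1 at 128 and 178.

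Late Hdac1 mutant embryos, set against the same water libraries, had levels near those of Hdac1 WT embryos for many of these genes. Tcl1 was at 128 and 178 FPKM and Tcl1b2 at 51.2 and 56.7. Tcl1 and Tcl1b1 to Tcl1b4 were also called lower in mutant than in H2O embryos in limma. Their log2 fold changes ran from -1.26 (Tcl1b1, adjusted p = 0.00738) to -2.17 (Tcl1b4, adjusted p = 0.00377). Omt2b, Omt2a, Bcl2l10, Obox5 and Rfpl4 were called lower there too. Tcl1b5 (adjusted p = 0.119) and the oocyte transcripts Zbed3 and Accsl did not pass.

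The same transcripts can be set against embryos that share no library with the H2O group. Levels in DMSO-cultured embryos, whose label names no injection, were lower than in H2O embryos for much of the cluster: Tcl1 was at 225 and 248 FPKM in DMSO embryos. Against DMSO embryos the log2 fold change of Hdac1 WT embryos was -0.95 for Tcl1 (adjusted p = 0.0426), -0.99 for Tcl1b2 (adjusted p = 0.0149), -1.24 for Omt2b (adjusted p = 0.0012) and -0.68 for Obox5 (adjusted p = 0.0205) in limma. It was -0.79 for Tcl1b1 (adjusted p = 0.116), -0.66 for Tcl1b4 (adjusted p = 0.416), -0.60 for Tcl1b5 (adjusted p = 0.343) and -0.24 for Btg4 (adjusted p = 0.233) in limma, which did not pass. Nor did the oocyte genes Oog1, at -0.06 (adjusted p = 0.818), and Rfpl4, whose sign was turned at 0.25 (adjusted p = 0.528). With DMSO embryos as the control, 531 genes were called higher (4.46%) and 2638 lower (22.2%) over the whole table. Treatment differs between these groups, and so does the set of libraries described next, so their parts in that count cannot be told apart.

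The libraries of the study fall into 2 sets. There are 8 genes below 0.5 FPKM in each of the 8 DMSO, FK228 and Hdac2 libraries and above 3 FPKM in each of the 14 H2O and Hdac1 libraries, and 0 genes with the reverse pattern. One of them is Gm37110, at 429 and 509 FPKM in Hdac1 WT embryos, against 107 and 182 in H2O embryos, and listed at 0 in both Hdac2 WT libraries and both DMSO libraries. It was called higher in Hdac1 WT embryos (log2 fold change 1.74 ± 0.22, adjusted p = 0.00132 in limma), as were the unnamed transcripts Gm36958 (1.76 ± 0.23), Gm38025 (1.75 ± 0.27) and Gm37724 (1.55 ± 0.31). These 4 genes were chosen after their values were seen; they lie on several chromosomes and share 6.62% to 74% of their 50-base words with each other, so they cannot be counted as separate events. Results that set Hdac1 WT embryos against Hdac2 WT or DMSO embryos cross these 2 sets, as do those of Hdac2 WT against H2O embryos.

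The 12 named genes with the largest rise were of mixed kinds and mostly of low abundance. After Hdac1 and Hdac1-ps came Rnf123, a ubiquitin ligase subunit, at 17.6 and 8.02 FPKM in Hdac1 WT embryos, against 1.71 and 2.24 in H2O embryos. Arhgap32, a GTPase-activating protein, was at 8.12 and 4.68 FPKM in Hdac1 WT embryos, against 1.28 and 1.18 in H2O embryos (log2 fold change 1.69 ± 0.23, adjusted p = 0.0016 in limma). Foxn3, a forkhead repressor, was at 19.3 and 18.6 FPKM in Hdac1 WT embryos, against 2.97 and 9.32 in H2O embryos. Of these 3 genes Arhgap32 alone passed with groups weighted by their spread (adjusted p = 0.0239), and for Foxn3 the gap rests largely on H2O replicate 1. Runx1t1, a corepressor known as ETO that binds histone deacetylase complexes, was at 12.5 and 7.20 FPKM in Hdac1 WT embryos, against 2.04 and 2.79 in H2O embryos. Trappc3, a subunit of the TRAPP trafficking complex, was at 20.7 and 19.8 FPKM in Hdac1 WT embryos, against 4.64 and 9.41 in H2O embryos. Arl13b, a GTPase of the primary cilium, was at 6.37 and 7.26 FPKM in Hdac1 WT embryos, against 2.00 and 1.77 in H2O embryos. Trappc3 and Arl13b passed with each library left out, while Runx1t1 did not. The other 4 were Synm, an intermediate filament protein, Srl, a calcium store protein of muscle, Bin2, a membrane-curving protein, and Basp1, a membrane-bound signalling protein, with log2 fold changes of 1.35, 1.33, 1.30 and 1.26.

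**Figure D3:**
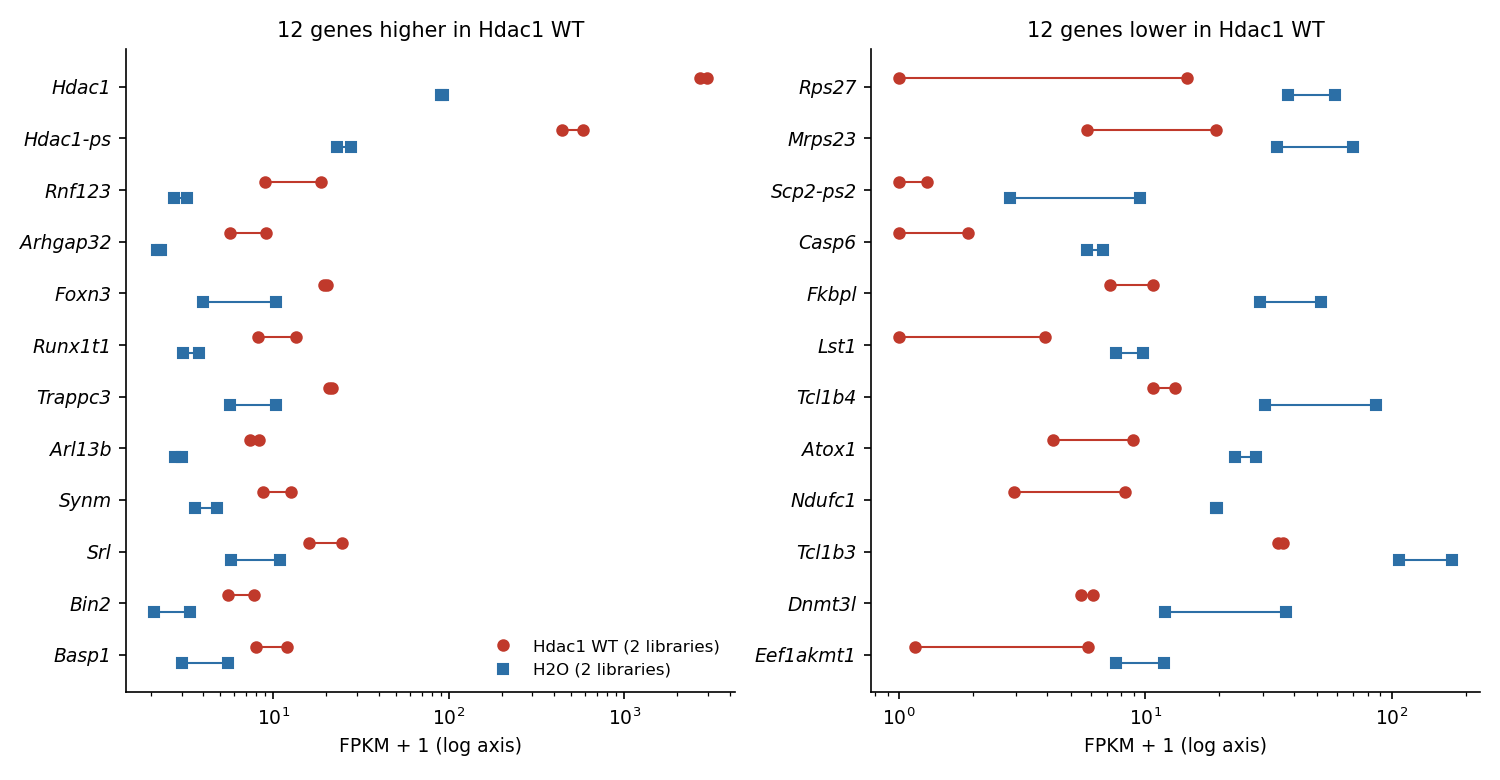
FPKM + 1 on a log axis of the 12 genes with the largest rise and the 12 with the largest fall under the naming rule, circles for the 2 Hdac1 WT libraries and squares for the 2 H2O libraries, each pair joined by a line. Hdac1 at 2707 and 2960 is far from H2O at 92.2 and 89.3, whereas pairs such as Rps27 in Hdac1 WT, at 0 and 13.8 FPKM, are wide.

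The 12 with the largest fall were also of mixed kinds. Rps27, a protein of the small ribosomal subunit, was listed at 0 and stood at 13.8 FPKM in Hdac1 WT embryos, against 57.9 and 37.0 in H2O embryos (log2 fold change -3.62 ± 0.85, adjusted p = 0.0271 in limma). It is uncertain, since 25% of its 50-base words are shared with its copy Rps27rt. Mrps23, a mitochondrial ribosomal protein, was at 4.81 and 18.5 FPKM in Hdac1 WT embryos, against 33.3 and 68.7 in H2O embryos. Fkbpl, a relative of the FK506-binding proteins, was at 6.19 and 9.76 FPKM in Hdac1 WT embryos, against 50.8 and 28.3 in H2O embryos (log2 fold change -2.15 ± 0.25, adjusted p = 0.000838 in limma), and it passed both with each library left out and with groups weighted by their spread. Atox1, a copper chaperone, was at 3.23 and 7.91 FPKM in Hdac1 WT embryos, against 27.1 and 22.1 in H2O embryos, and passed with each library left out. The others were Casp6, an executioner caspase, at 0 and 0.908 FPKM in Hdac1 WT embryos, against 5.72 and 4.78 in H2O embryos, the respiratory subunit gene Ndufc1, the methyltransferase gene Eef1akmt1, the immune gene Lst1, the pseudogene Scp2-ps2, Tcl1b3, Tcl1b4 and Dnmt3l. Of these 12 genes, Fkbpl and Atox1 alone passed with each library left out. Casp6 and Scp2-ps2 stayed below 1 FPKM in both Hdac1 WT libraries and passed the FPKM filter only through the H2O libraries.

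With groups weighted by their own spread, the 12 lower calls were Fkbpl, Obox5, Polr2g, Cops9, Cox6b2, Lmo1, Mphosph6, Trappc4, Gm8186, Gm6822, Gm16220 and Gm5829, and the 8 higher ones Hdac1, Hdac1-ps, Arhgap32, Gm37110, Gm36958, Gm38025, Gm24497 and 9430002A10Rik. Those outside the naming rule were chosen after their values were seen. Gm6822, Gm16220 and Gm5829 were listed at 0 in both Hdac1 WT libraries, and 9430002A10Rik in both H2O libraries. They passed the FPKM filter only through the group where they were higher. Gm24497 was at 44.2 and 8.94 FPKM in Hdac1 WT embryos and at 0 and 1.99 in H2O embryos. The calls of these unnamed transcripts rest on values listed at 0 and do not count as firm. Cops9, a subunit of the COP9 signalosome, was at 23.0 and 33.3 FPKM in Hdac1 WT embryos, against 68.9 and 104 in H2O embryos. Cox6b2, a subunit form of respiratory complex IV, was at 16.2 and 30.0 FPKM in Hdac1 WT embryos, against 76.7 and 82.3 in H2O embryos. Mphosph6, a cofactor of the nuclear RNA exosome, was at 191 and 206 FPKM in Hdac1 WT embryos, against 421 and 609 in H2O embryos. The groups did not overlap in these 3 genes, as in all 427 lower calls, so this adds nothing to their calls. Lmo1, a LIM-domain transcriptional cofactor, was at 21.2 and 26.9 FPKM in Hdac1 WT embryos, against 61.8 and 94.0 in H2O embryos, and Trappc4, another TRAPP subunit, at 19.2 and 15.7 FPKM in Hdac1 WT embryos, against 38.3 and 35.2 in H2O embryos.

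In the lists of genome activation, 1 gene was called, the oocyte homeobox gene Obox5 described above. Obox5 stood at 1030 and 955 FPKM in the 24 h Hdac1 WT libraries, above its levels in either group at 36 h. Of 37 genes of the 2-cell burst (the families switched on transiently at this stage, such as Zscan4, Tdpoz, Usp17l and Trim43), 0 were called in limma at an adjusted p under 0.05, with log2 fold changes between -0.49 and 0.751 and a median of 0.0929. At an unadjusted p under 0.05, 3 of them were higher and 1 lower, where 5.43% of all genes were higher and 14.5% lower at that p. Zscan4d, a telomere and genome stability gene that marks the stage, was at 15.6 and 21.01 FPKM in Hdac1 WT embryos and 16.7 and 16.7 in H2O embryos. Zfp352, a zinc finger gene of the 2-cell embryo, was at 34.1 and 32.8 FPKM in Hdac1 WT embryos and 20.9 and 23.1 in H2O embryos (log2 fold change 0.58, adjusted p = 0.173 in limma). Both genes were chosen after their values were seen, and members of these families can share reads. Both 2-cell markers were present in all 4 libraries, which carry the late 2-cell label. Of 30 Obox genes and other activators of the zygotic genome, 1 was called lower (3.33%, against 3.59% of all genes), Obox5, and 0 higher.

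Genes for acetylation, methylation and chromatin held between 0 and 4 calls a list. Of 32 histone acetyltransferases and readers, 1 was called lower (3.12%, against 3.59% of all genes), Yeats4, a reader of acetylated histone H3. Yeats4 was at 44.5 and 36.8 FPKM in Hdac1 WT embryos, against 65.7 and 74.5 in H2O embryos. Of 27 H3K4 methylation genes, 1 was called lower (3.7%), Pagr1a. Of 29 Polycomb subunits, 0 were called in limma, with 4 lower and 0 higher at an unadjusted p under 0.05. At that p, 14.5% of all genes were lower and 5.43% higher. The DNA methylation list gave 3 lower (17.6%, against 3.59% of all genes) and 1 higher of 17, and 0 of these passed with each library left out. Dnmt3l, a cofactor of the de novo DNA methyltransferases, was at 4.48 and 5.12 FPKM in Hdac1 WT embryos, against 36.3 and 10.98 in H2O embryos, where the H2O libraries differ by more than 3 times. Gadd45b and Gadd45a, stress-induced genes linked to DNA repair and demethylation, changed by -1.10 ± 0.20 and -0.66 ± 0.17 on the log2 scale. Uhrf1, which brings Dnmt1 to replicated DNA, was at 14.8 and 9.83 FPKM in Hdac1 WT embryos, against 7.29 and 7.62 in H2O embryos (log2 fold change 0.63, adjusted p = 0.046 in limma). In the list of genes that deacetylase inhibitors induce in other cells, 3 of 15 were called lower (20%, against 3.59% of all genes) and 0 higher, namely Lgals1, Adm and the linker histone gene H1f0. Of these calls, 0 passed with each library left out and 0 with groups weighted by their spread. H1f0 was at 24.6 and 25.5 FPKM in Hdac1 WT embryos, against 35.02 and 46.9 in H2O embryos. Lgals1 and Adm were low in both groups, at most 1.77 FPKM in Hdac1 WT embryos and 6.84 in H2O embryos. Adm passed the FPKM filter only through the H2O libraries, where it was higher, so its call does not count as firm.

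The genes that the inhibitor moved in these embryos can be counted too. FK228 is an inhibitor of class I deacetylases. FK228 against DMSO called 2461 genes higher (20.7%) and 4450 lower (37.4%) among the same 11903 genes. Neither group shares a library with Hdac1 WT or H2O embryos. All comparisons of this paragraph nevertheless use the same pooled replicate spread per gene. Their calls are therefore not independent of the calls between Hdac1 WT and H2O embryos. Of the 2461 genes that FK228 raised, 33 were higher (1.34%, against 0.765% of all genes) and 135 lower (5.49%, against 3.59%) in Hdac1 WT embryos, so both shares lay above those of all genes, with a median log2 fold change of -0.0824. Of the 4448 that FK228 lowered, with Hdac1 and Hdac1-ps left out, 10 were higher (0.225%) and 96 lower (2.16%), with a median of -0.112. Hdac2 mutant against Hdac2 WT embryos called 2403 higher (20.2%) and 3768 lower (31.7%). Of the 2403 genes raised there, 32 were higher (1.33%) and 124 lower (5.16%) in Hdac1 WT embryos, with a median of -0.111, and of the 3766 lowered, again without Hdac1 and Hdac1-ps, 9 were higher (0.239%) and 87 lower (2.31%), with a median of -0.0957. The medians of all 4 groups lay between -0.112 and -0.0824, around the -0.0975 of all genes, and after removal of the length trend described next the FK228-raised genes held 42 higher and 59 lower calls. DMSO embryos at 36 h against Hdac1 WT embryos at 24 h called 5689 genes higher (47.8%) and 3448 lower (29%). These groups differ in time, in injection and in the 2 sets of libraries described above, whose parts cannot be told apart. With Hdac1 and Hdac1-ps left out, 3446 genes were lower in the DMSO embryos. Of these, 39 were higher (1.13%) and 191 lower (5.54%) in Hdac1 WT than in H2O embryos. The 39 include Gm37110, Gm36958, Gm38025 and Gm37724, and Gm37110 is listed at 0 in both DMSO libraries. Of the 5689 higher in the DMSO embryos, 23 were higher (0.404%) and 162 lower (2.85%) in Hdac1 WT than in H2O embryos. The differences between these shares were not tested.

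Genes of protein synthesis and energy supply held up to 5 calls a list, and most of their lists had medians below that of all genes. Of 81 cytosolic ribosomal proteins, 3 were called lower (3.7%, against 3.59% of all genes) and 0 higher, with a median log2 fold change of -0.21. Rps21 was at 150 and 201 FPKM in Hdac1 WT embryos, against 343 and 243 in H2O embryos, and Rplp2 at 97.3 and 131 FPKM in Hdac1 WT embryos, against 199 and 176 in H2O embryos. Of 71 mitochondrial ribosomal proteins, 2 were called lower (2.82%), Mrps23 and Mrps14, and 1 higher, Mrpl17, where 0.765% of all genes were called higher. Mrpl17 was at 19.6 and 19.04 FPKM in Hdac1 WT embryos, against 7.05 and 10.7 in H2O embryos. Of 69 nuclear-encoded subunits of the respiratory chain, 5 were called lower (7.25%), with a median of -0.28. Among them, Ndufa4 was at 6.21 and 12.1 FPKM in Hdac1 WT embryos, against 30.6 and 24.2 in H2O embryos. Ndufc2 was at 0 and 0.445 FPKM in Hdac1 WT embryos, against 2.96 and 5.24 in H2O embryos. It passed the FPKM filter only through the H2O libraries. The 13 mitochondrially encoded mRNAs, which code for other subunits of the same chain, had a median of 0.25, with 0 called in limma, 0 at an unadjusted p under 0.05 (5.43% of all genes higher and 14.5% lower at that p), and 10 of 13 higher in both Hdac1 WT libraries than in either H2O library (13.3% of all genes). That median was 0.35 after median-ratio scaling, against 0.01 once the libraries were quantile normalized. The H2O and Hdac1 WT libraries numbered 1 had mt-Atp8 at 13931 FPKM in Hdac1 WT and 14616 in H2O embryos, and those numbered 2 at 5095 in Hdac1 WT and 4747 in H2O embryos.

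Lists of transcription, splicing and protein turnover differed in their share of lower calls, beside 3.59% of all genes. The RNA polymerase list had 5 of 31 genes called lower (16.1%), with a median of -0.25, and 1 of them, Polr2g, passed with each library left out. Polr2g, the Rpb7 subunit of RNA polymerase II, was at 7.36 and 7.55 FPKM in Hdac1 WT embryos, against 19.8 and 15.8 in H2O embryos (log2 fold change -1.14 ± 0.15, adjusted p = 0.00141 in limma), and it also passed with groups weighted by their spread. Polr2i and Polr2l, small subunits of the polymerases, changed by -1.24 ± 0.32 and -0.72 ± 0.19 on the log2 scale. Of 69 splicing factors, 3 were called lower (4.35%), the small ribonucleoprotein genes Snrpg, Snrnp27 and Snrpf, and of 40 proteasome genes 3 were called lower (7.5%), Psmd9, Psmb2 and Psmd3. Of 99 ribosome biogenesis factors, 2 were called lower (2.02%), Nop10, a protein of box H/ACA particles at 13.8 and 14.4 FPKM in Hdac1 WT embryos, against 31.3 and 29.4 in H2O embryos, and Imp4. Of 39 translation initiation factors and 19 aminoacyl-tRNA synthetases, 0 were called in limma. At an unadjusted p under 0.05, 1 initiation factor was higher and 3 were lower, and 1 synthetase was lower. Over all genes, 5.43% were higher and 14.5% lower at that p.

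Stress, death and cell division lists held between 1 and 4 lower calls, beside 3.59% of all genes. Of 26 caspases and Bcl2 family members, 4 were called lower (15.4%), among them Casp6, Bcl2l12 (-1.68 ± 0.37 on the log2 scale) and the oocyte gene Bcl2l10, and 0 higher. Of 27 genes of the integrated stress response, 3 were called lower (11.1%). Atf4, its main transcription factor, was at 103 and 117 FPKM in Hdac1 WT embryos, against 154 and 190 in H2O embryos, and Nupr1 and Mthfd2, both targets of that response, changed by -1.27 ± 0.29 and -0.64 ± 0.17 on the log2 scale. Of 23 p53 targets, 2 were called lower (8.7%), Gadd45a and Ddit4. Of 43 cell cycle genes, 1 was called lower (2.33%), Mad2l1, a spindle checkpoint protein, at 49.8 and 58.6 FPKM in Hdac1 WT embryos, against 99.0 and 83.8 in H2O embryos. Of 46 DNA replication genes, 4 were called lower (8.7%), among them Pold1, the catalytic subunit of polymerase delta, Pole3, a small subunit of polymerase epsilon, and Rpa1, which coats single-stranded DNA. Of the calls in these 5 lists, Bcl2l10 and Mad2l1 passed with each library left out, and 0 passed with groups weighted by their spread. Casp6 and Pold1 passed the FPKM filter only through the H2O libraries, where they were higher, so their calls do not count as firm.

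Of 22 pluripotency and lineage factors, 1 was called higher and 1 lower (4.55%), where 0.765% of all genes were higher and 3.59% lower. The called genes are relatives. Id2, an inhibitor of helix-loop-helix factors, was at 7.58 and 4.13 FPKM in Hdac1 WT embryos, against 2.26 and 3.20 in H2O embryos, at the edge of the threshold (adjusted p = 0.0499 in limma). Id1, of the same family, was at 5.34 and 9.34 FPKM in Hdac1 WT embryos, against 18.8 and 16.0 in H2O embryos (adjusted p = 0.0319 in limma). Neither passed with each library left out. Of 19 imprinted genes, 1 was called higher, Dlk1, where 0.765% of all genes were called higher. Dlk1, a paternally expressed growth regulator, was at 2.78 and 1.74 FPKM in Hdac1 WT embryos and listed at 0 in both H2O libraries. It passed the FPKM filter only through the group where it was higher, so its call does not count as firm.

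**Figure D4:**
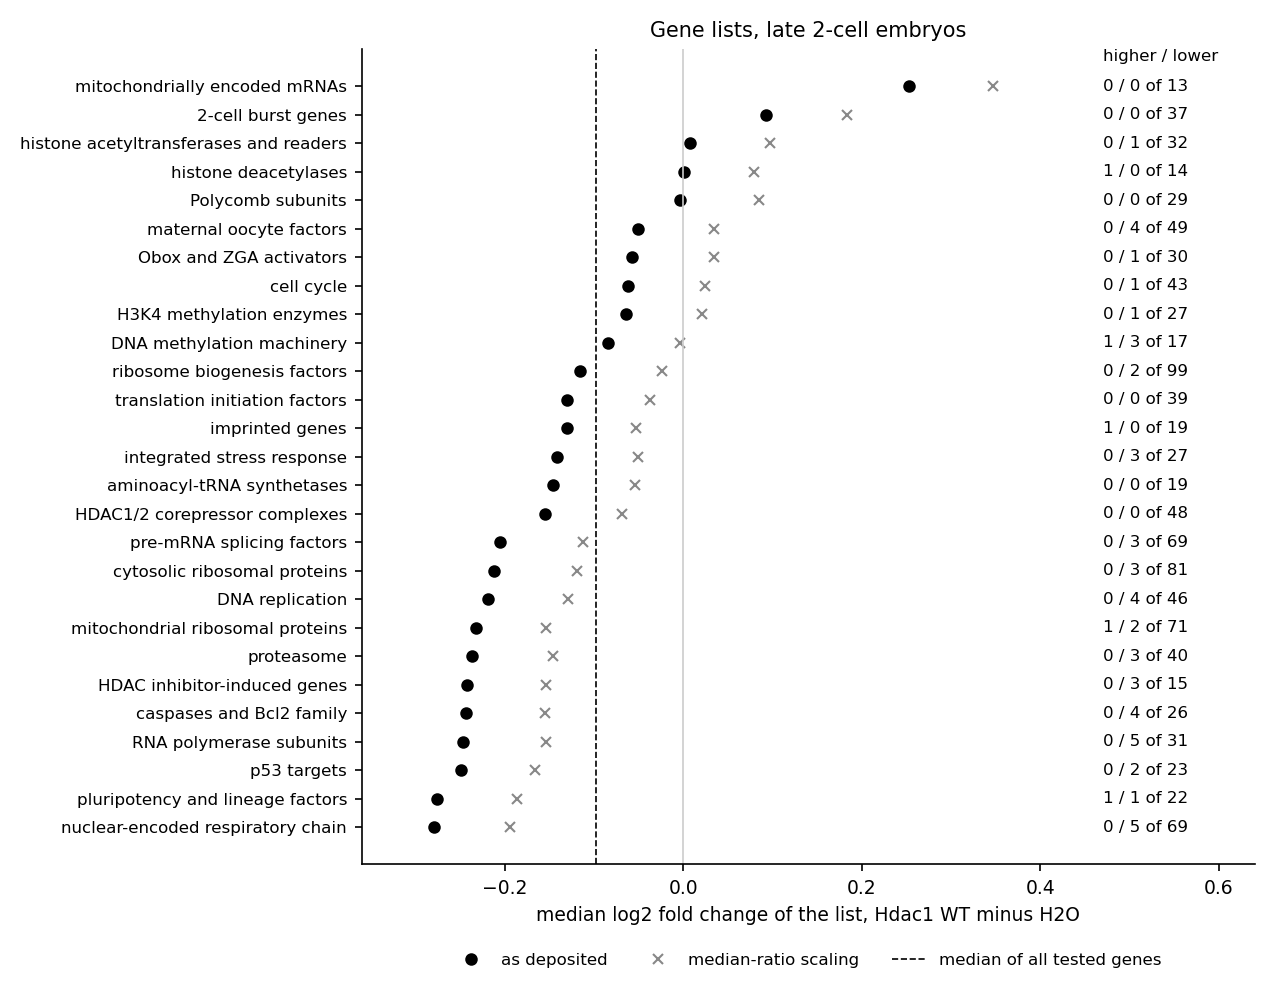
Median log2 fold change of Hdac1 WT minus H2O for 27 gene lists with at least 10 tested members, circles for the values as deposited and crosses after median-ratio scaling, with the counts called higher and lower of those tested at the right. Most lists lie within 0.2 of the dashed median of all genes at -0.0975, and the mitochondrially encoded mRNAs lie highest at 0.25.

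The change differed by transcript length. Among protein-coding genes with an annotated length, the median log2 fold change was -0.328 in the 406 genes whose longest transcript has over 600 and up to 1000 bases and 0.007 in the 1442 genes with over 6000 bases. Lower calls were 46 of 406 (11.3%) in that class and 12 of 1442 (0.832%) in the longest class. The 88 genes of up to 600 bases did not continue the order, with a median of -0.279 and 6.82% called lower. In each of the 5 classes up to 4000 bases, every one of the 4 differences between an Hdac1 WT and an H2O library had a negative median. Replicates of a group differed by length as well. Over the classes, the medians of replicate 1 minus replicate 2 ran from -0.174 to 0.0848 in Hdac1 WT embryos and from -0.122 to 0.137 in H2O embryos. The median length was 3756 bases in the 68 higher calls without Hdac1, 2153 in the 385 lower calls and 3324 in all protein-coding genes tested. The median length was 1059 bases in the cytosolic ribosomal list, 1232 in the respiratory chain list, 1919 in the proteasome list and 2403 in the RNA polymerase list, all with medians of change below that of all genes. Other lists did not follow length: the mitochondrially encoded mRNAs had a median length of 784 bases and a median of 0.25, and the splicing factors had 3106 bases and a median of -0.21. With the length trend removed, an alternative added after the data were seen, the calls were 118 higher and 196 lower, and the medians were -0.03 for cytosolic ribosomal proteins, -0.16 for the respiratory chain and -0.11 for RNA polymerase subunits beside 0.00057 for all genes. Of the 64 named genes called, 25 lost their call with the length trend removed.

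**Figure D5:**
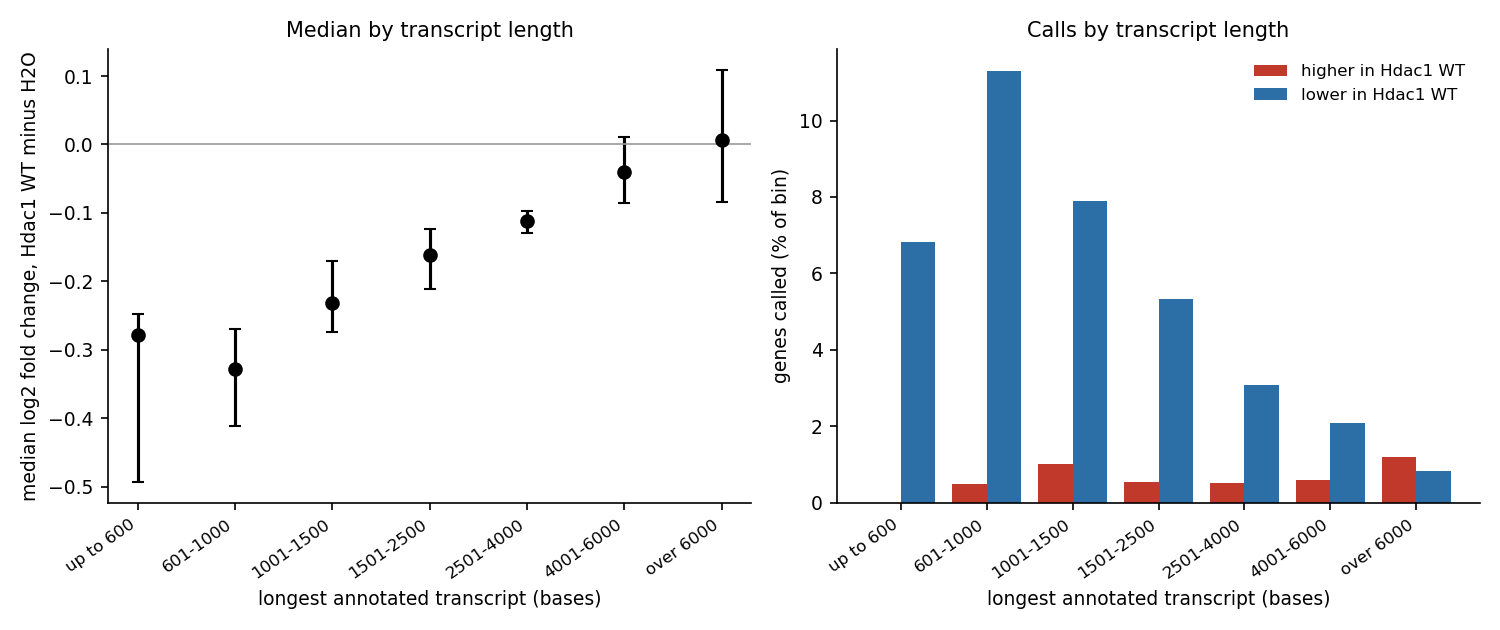
Left, the median log2 fold change of Hdac1 WT minus H2O by length of the longest annotated transcript, with bars for the range of the 4 differences between single libraries. Right, the percentage of genes in each class called higher and lower, where lower calls are at 6.82% up to 600 bases, 11.3% at over 600 and up to 1000 bases and 0.832% over 6000 bases.

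Lower calls were spread over the genome. Over the autosomes and the X chromosome, the share called lower ran from 1.14% on chromosome 18 to 5.93% on chromosome 6, and chromosome 12, which holds the Tcl1 cluster, had 4.26%. Of the lower calls, 385 were protein coding and 18 were processed pseudogenes, and of the higher calls 69 and 7. Markers of other cells were mostly low. The 20 cumulus and granulosa markers summed to 2.44 and 4.59 FPKM in Hdac1 WT libraries and 4.26 and 4.10 in H2O libraries, with Ptx3, Fshr and Lhcgr at 0 in all 4 libraries. The 11 blood markers summed to 5.65 and 3.97 FPKM in Hdac1 WT libraries and 4.77 and 6.64 in H2O libraries, with Hbb-bs, Hbb-bt, Ptprc and Cd3e among those at 0 in all 4. The 11 sperm markers summed to 49.2 and 33.2 FPKM in Hdac1 WT libraries and 38.2 and 33.3 in H2O libraries, most of it from Odf2, which many cells use at the centrosome, and Prm1, Tnp1 and Tnp2 were at 0 in all 4. Ldhc, the testis form of lactate dehydrogenase, was at 8.33 and 4.93 FPKM in Hdac1 WT libraries, against 3.21 and 3.68 in H2O libraries, so the groups did not overlap (log2 fold change 0.75 ± 0.28, adjusted p = 0.147 in limma). The part of these markers in the results was not tested.

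Hdac1 WT embryos were also set directly against Hdac2 WT embryos, which asks where the 2 enzymes in excess differ. The fold changes use no water library, but the filter of genes and the pooled spread do. Genes that reach 1 FPKM only in Hdac2 WT embryos were therefore not tested. Of the same 11903 genes, 308 were higher (2.59%) and 1456 lower (12.2%) in Hdac1 WT than in Hdac2 WT embryos in limma, and higher calls made up 17.5% of all calls, 40.9% after median-ratio scaling and 42% after quantile normalization. Since the 2 groups lie in the different sets of libraries named above, the enzyme and the set cannot be told apart. Hdac1 was at 77.8 and 73.8 FPKM in Hdac2 WT embryos, and Hdac2, at 19.3 and 16.3 FPKM in Hdac1 WT embryos, was at 1775 and 1462 in Hdac2 WT embryos. Among the 6 named higher genes, Hexdc, a hexosaminidase gene, was at 15.0 and 20.4 FPKM in Hdac1 WT embryos, against 2.34 and 3.03 in Hdac2 WT embryos (log2 fold change 2.33 ± 0.24, adjusted p = 2.08e-05 in limma). The histone genes H2ac14 and Hist1h2ap changed by 2.62 ± 0.59 and 2.49 ± 0.53, and the pseudogene Rpl31-ps20 was listed at 0 in both Hdac2 WT libraries.

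The 6 named lower genes of that comparison began with Hdac2. Dmrta2, a transcription factor of the doublesex family, was at 3.20 and 3.54 FPKM in Hdac1 WT embryos, against 23.8 and 27.2 in Hdac2 WT embryos (log2 fold change -2.60 ± 0.28, adjusted p = 3.12e-05 in limma). Zbtb42, a zinc finger repressor, was at 2.08 and 0.941 FPKM in Hdac1 WT embryos, against 12.1 and 16.2 in Hdac2 WT embryos, and Iqsec1, an exchange factor for Arf GTPases, at 12.0 and 14.2 FPKM in Hdac1 WT embryos, against 73.1 and 68.9 in Hdac2 WT embryos. Dmrta2, Zbtb42 and Iqsec1 did not pass the test between Hdac1 WT and H2O embryos. H2-Q5, a class I histocompatibility gene, and Lst1 changed by -2.63 ± 0.32 and -2.82 ± 0.55. Among the oocyte transcripts, Tcl1b2 (-1.60 ± 0.27, adjusted p = 0.00131), Omt2b (-1.31 ± 0.23, adjusted p = 0.00149) and Lmo1 (-1.79 ± 0.23, adjusted p = 0.000124) were lower in Hdac1 WT than in Hdac2 WT embryos in limma, while Obox5 (-0.25 ± 0.20, adjusted p = 0.435) and Rfpl4 (-0.11 ± 0.27, adjusted p = 0.825) did not pass.

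Hdac2 WT and Hdac1 mutant embryos were each set against the same water libraries as well, so their values stand beside those of Hdac1 WT embryos without counting as separate evidence. Hdac2 WT against H2O also crosses the 2 sets of libraries, while the Hdac1 groups lie in the set of the H2O libraries. The enzyme and the set cannot be told apart in the Hdac2 WT values. For Omt2b the log2 fold changes against H2O were -1.47 in Hdac1 WT, -0.16 in Hdac2 WT and -1.08 in Hdac1 mutant embryos. For Tcl1b2 they were -1.72, -0.12 and -1.53 in the same order, and for Obox5 -1.53, -1.27 and -0.97. For Fkbpl they were -2.15 in Hdac1 WT, -1.53 in Hdac2 WT and -1.79 in Hdac1 mutant embryos, and for Arhgap32 1.69, 0.83 and 1.93. The labels do not give the mutation of the Hdac1 mutant. Its late libraries carried Hdac1 at a larger share of summed FPKM, 1.77% and 1.76%, than the 0.816% and 0.947% of the Hdac1 WT libraries.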

How the data were processed

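Whole embryos were profiled in 22 mouse libraries (11 groups of 2); the 4 bovine libraries were not used. Per the labels' protocols, polyadenylated RNA was selected on oligo(dT) beads and no step that marks strand is described, so overlapping and antisense genes cannot be told apart. The authors deposited FPKM per gene and library. The submitters' processing notes name the build GRCm38 and the tools Trimmomatic, HISAT2, featureCounts, DESeq2 and Cufflinks, without a version. FPKM are not counts, so no count test was run, absolute depth is unknown and no counting interval is given.

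The test was limma 3.58.1 in R 4.3.3 on log2(FPKM + 1), a scale that understates changes of low genes. All fold changes and SEs are on that scale. The fit held all 22 libraries, with a mean for each group, which leaves 11 residual degrees of freedom, and used an empirical Bayes trend. P-values are two-sided with Benjamini-Hochberg adjustment over the 11903 genes. An exact permutation test of 2 against 2 libraries cannot go below 0.333. The procedure was tested on simulated data with the same spread per gene in all groups. That test therefore does not cover the wider replicate spread of the 2 groups compared. Positions and lengths were taken from GENCODE M21 (GRCm38) by symbol, for 11738 genes. Promoter windows of RefSeq matched 71.4% of the tested genes, so a check of promoter composition is void. Tables and figures used Python 3.11.15, pandas 2.3.3 and matplotlib 3.10.9.

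Members and gene lists were chosen with earlier results of these data known. The genes named are at most 12 rises and 12 falls by size of change, out of calls whose groups do not overlap, whose higher group averages 5 FPKM or more and whose symbol is not that of a clone. To these come at most 3 called members of each list, Hdac1, Hdac2 and Kdm5b, and the first 6 each way against Hdac2 WT. Genes outside this rule were chosen after their values were seen, Uhrf1 and the members of the Tcl1 cluster included. Alternatives covered the pseudocount, filters, scalings, libraries fitted, the replicate block, the control group and leaving out each library.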

Additional observations from a re-analysis of the deposited data

How the results depend on the processing

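Between Hdac1 WT and H2O embryos (91 higher and 427 lower as deposited), higher calls numbered 51 with at least 5 FPKM required, 54 with the 18 late libraries fitted, 2 with the 4 libraries alone, and 531 with DMSO embryos as the control. Lower calls numbered 258 after median-ratio scaling, 149 after quantile normalization, 0 with the 4 libraries alone and 2638 with DMSO embryos as the control. Alternatives chosen after seeing the data gave 8 higher and 12 lower calls with groups weighted by their spread, 196 lower calls with the length trend removed, and 17 higher and 65 lower calls that passed with each library left out. Leaving out 1 library gave 25 (without H2O replicate 1) to 215 (without Hdac1 WT replicate 2) higher calls and 200 (without Hdac1 WT replicate 1) to 557 (without Hdac1 WT replicate 2) lower calls. Between Hdac1 WT and Hdac2 WT embryos (308 higher and 1456 lower), the counts were 29 and 32 with the compared groups alone, 573 and 828 after median-ratio scaling, and 587 lower after quantile normalization. There, leaving out 1 library gave 108 to 297 higher and 731 to 1256 lower calls, both lowest without Hdac2 WT replicate 2. The cause of these shifts was not tested. With the replicate block in all 22 libraries, 89 genes were higher and 423 lower against H2O, and 329 higher and 1477 lower against Hdac2 WT. Same-numbered libraries of the H2O, Hdac1 WT and Hdac1 mutant late groups deviated together (r = 0.19 to 0.22 over genes), the other 52 pairs of groups did not (-0.076 to 0.089), and a replicate block in those 3 groups, added after seeing the data, gave 136 higher and 592 lower calls. Of 1241 alternative values for 66 named genes, 826 kept direction and call, 411 kept direction only and 4 reversed: Basp1 at -0.25 and Rfpl4 at 0.25 against DMSO embryos, and Kdm5b at 0.0057 against DMSO embryos and 0.023 after quantile normalization. List medians below 0 for maternal factors, Obox genes, cell cycle, H3K4 enzymes and Polycomb were above 0 after median-ratio scaling. Low FPKM and 2 libraries a group limit the precision.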
